A study of Mus musculus with 2 samples.

Results

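Macrophage_3 is 1 of 4 macrophage clusters that the depositors named among the cells of Hep1-6 tumours, and it was studied here under that deposited name. Its members were the cells whose deposited cluster name is Macrophage_3: 195 of 11247 cells, 91 of 5482 in the library of mice given SIGLEC15 antibody and 104 of 5765 in the library of mice given IgG. The working description of these cells as alternatively activated macrophages rests on Retnla, Mrc1 and Arg1. Summed over its cells, Macrophage_3 had the highest level of all 3 genes among the 30 clusters, but 7 of the 91 antibody cells held UMIs of all 3. The list of genes that stood furthest above its neighbours in summed level was that of resident and perivascular macrophages. That list was chosen with earlier results of these data known, so its lead is a description. Among its genes, Folr2 was found in 49 of the 91 cells, Cbr2 in 40 and Lyve1 in 25.

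The tumours were grafts of Hep1-6, a mouse hepatoma line, in male wild-type C57BL/6 mice of 6 to 8 weeks kept on a normal diet. The control group received IgG and the treated group a SIGLEC15 antibody, both by intraperitoneal injection. SIGLEC15 is a sialic acid-binding receptor of myeloid cells that is studied as an immune checkpoint, and its transcript was not analysed here. The design gives 3 mice per group, but each group is 1 library of 3′ single-cell tags in which the cells of single mice cannot be told apart, so no difference between the groups has a replicate check. Digested tumour cells enriched on CD45 beads were mixed in equal parts with unsorted cells, which sets the share of immune cells.

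Macrophages that meet interleukin 4 or interleukin 13 signal through STAT6 and turn on a set of genes called alternative activation: Retnla encodes the secreted protein RELMα, Mrc1 the mannose receptor CD206, and Arg1 the enzyme arginase 1, which splits arginine. Arg1 is also known to be turned on by lactate and low oxygen in tumours, and Mrc1 is also a marker of tissue-resident macrophages. Resident macrophages along blood vessels carry the folate receptor Folr2, the hyaluronan receptor Lyve1 and the haemoglobin scavenger receptor Cd163, and take up debris. Inflammatory macrophages that derive from monocytes carry more of the machinery for presenting antigen on MHC class II.

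The 250 bases before the annotated start of Retnla and Mrc1 are shown because the cluster's label rests on these genes and the first is a textbook target of STAT6. They come from RefSeq on GRCm38.p6, both on the plus strand: Retnla at chr16:48842359-48842608 and Mrc1 at chr2:14229164-14229413. Capitals mark matches, on either strand, to TTC and GAA with 4 bases of any kind between them, the form of STAT site that STAT6 is known to prefer, and to GAGGAAGT, a motif of the myeloid factor PU.1.
Retnla: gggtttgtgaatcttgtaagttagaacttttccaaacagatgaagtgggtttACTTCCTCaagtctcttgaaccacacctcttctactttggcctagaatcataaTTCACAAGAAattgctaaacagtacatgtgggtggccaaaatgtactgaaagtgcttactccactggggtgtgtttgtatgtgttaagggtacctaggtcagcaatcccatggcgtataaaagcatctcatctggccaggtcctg
Mrc1: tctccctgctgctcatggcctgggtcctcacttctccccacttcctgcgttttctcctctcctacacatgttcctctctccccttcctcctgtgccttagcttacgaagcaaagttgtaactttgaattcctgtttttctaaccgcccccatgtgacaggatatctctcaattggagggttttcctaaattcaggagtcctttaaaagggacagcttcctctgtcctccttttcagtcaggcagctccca
The Retnla sequence held a match to the STAT motif that began 145 bases before the start and a match to GAGGAAGT, on the minus strand, that began 198 bases before it. The Mrc1 sequence held neither run of letters. The STAT motif lay in 5.85% and GAGGAAGT in 2.44% of all 32851 promoters with an entry, and in at least 1 promoter of 6.76% and 2.79% of 27025 genes. Among the label markers and leading genes named below, 2 of the 18 with an entry held each motif, and no entry was found for Arg1, Lyve1, Fgfr1 or Fxyd2. These matches describe letters only.

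In the antibody library the 91 Macrophage_3 cells held 595477 UMIs (unique molecular identifiers, each standing for 1 captured transcript), with a median of 5380 per cell and a range of 834 to 22729. The clusters compared were Macrophage_1 (178 cells, median 7870.5 UMIs), Macrophage_2 (158 cells, 10587.5), Macrophage_4 (105 cells, 1053) and the cluster named DC (208 cells, 3796). The antibody library held 74168827 UMIs and the IgG library 85804877. A level is a gene's UMIs added up within a cluster and scaled to CPM (counts per 1000000 UMIs of that cluster), and every interval given is at the 95% level and covers the error of counting alone. Clusters were made from the same genes, so differences between them describe the clusters and carry no test. Mitochondrial genes took 4.35% of Macrophage_3 UMIs, within the 3.72% to 4.85% of the other 4 clusters. Ribosomal protein genes took 15.4%, the lowest share of the 5 clusters and below the 21.0% of Macrophage_2. No Macrophage_3 barcode was among the 11 barcodes that the libraries shared.

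Retnla stood at 1474 CPM (1379 to 1575) in Macrophage_3, against 129 in Macrophage_4, 71.0 in Macrophage_1, 38.9 in Macrophage_2 and 28.0 in DC. The ratio to the highest of these was 11.5 (7.13 to 19.8). Mrc1 stood at 783 CPM, against 219 in Macrophage_4, 183 in Macrophage_1, 171 in Macrophage_2 and 73.3 in DC, 3.57-fold (2.45 to 5.39) above the highest. Arg1 stood at 919 CPM, against 235 in Macrophage_2, 193 in Macrophage_1, 121 in Macrophage_4 and 22.6 in DC, 3.90-fold (3.43 to 4.45) above the highest. All 3 genes were thus several-fold above every neighbour in summed level.

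The share of cells gave another picture of each gene. Thinning to 1000 UMIs per cell left out 3 Macrophage_3 cells and 47 of 105 Macrophage_4 cells. Thinned this way, Mrc1 was detected in 46.3% of Macrophage_3 cells (81.3% unthinned). It was detected in 15.3% of Macrophage_1 (53.4% unthinned), 14.4% of Macrophage_2 (55.1% unthinned), 10.0% of Macrophage_4 and 5.35% of DC. Arg1 was detected in 24.9% (33.0% unthinned), against 11.1% of Macrophage_1 (23.0% unthinned) and 10.8% of Macrophage_2 (25.3% unthinned). Retnla was detected in 14.5% (22.0% unthinned), against 4.27% of Macrophage_4 and 3.06% of Macrophage_1. The thinned Retnla intervals of Macrophage_3 (8.11% to 23.9%) and Macrophage_4 (0.420% to 11.9%) overlapped. In 3213 tumour cells, which had a median depth of 20428 UMIs, the thinned shares were 0.0300% for Retnla, 0.124% for Mrc1 and 0.0289% for Arg1. Mrc1 was thus the broad marker of the cluster, and Retnla and Arg1 were held by a minority of its cells.

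The 3 label markers met in few cells. UMIs of all 3 were found in 7 of 91 cells, Retnla and Mrc1 without Arg1 in 13, Mrc1 and Arg1 without Retnla in 13, Mrc1 alone in 41, Arg1 alone in 10 and none of them in 7. No cell held Retnla without Mrc1. Of the 878 Retnla UMIs, 778 (88.6%) came from 4 cells, with 349, 228, 131 and 70 UMIs at depths of 16567, 12088, 7860 and 8815. For genes of at least 50 CPM in Macrophage_3, the 4 cells richest in a gene held a median of 24.2% of its UMIs, and 2 of 2825 genes were more concentrated than Retnla. The 4 richest cells held 51.2% of the 547 Arg1 UMIs and 20.8% of the 466 Mrc1 UMIs.

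The 4 Retnla-rich cells differed from the rest of the cluster in other genes too. They held 12, 12, 6 and 8 UMIs of Mrc1 but 0 of Arg1, of the complement gene C1qa, of Lyve1, of the chemokine Ccl8, of Cbr2 and of the lipid receptor Trem2. Fn1, which encodes fibronectin, stood at 4214 CPM in them against 307 in the other 87 cells. Ccr2, the chemokine receptor of blood monocytes, stood at 728 against 125 CPM. Apoe, an apolipoprotein of lipid-loaded macrophages, stood at 221 against 9270 CPM. Markers of other cell types lay in these cells as well. S100a9 stood at 4214 CPM against 2070 in the other 87 cells, and Cd3g at 331 against 107. The cell with 349 Retnla UMIs held 100 S100a8, 177 S100a9, 14 Cd3g and 4 Cd3e UMIs, and the cell with 70 held 16 S100a8 UMIs. The part of these transcripts in the Retnla level was not tested. The other 87 cells held 100 Retnla UMIs in 16 cells, or 182 CPM. Without the 4 cells, the Retnla ratio of Macrophage_3 to the highest neighbour was 1.42 (0.841 to 2.53), an interval that includes 1. That neighbour was Macrophage_4, with 17 Retnla UMIs, and no cells were left out of the neighbours. The 182 CPM lay above the 71.0 of Macrophage_1, the 38.9 of Macrophage_2 and the 28.0 of DC. The summed Retnla level that gives the cluster its label was therefore mostly that of 4 cells.

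**Figure D1:**
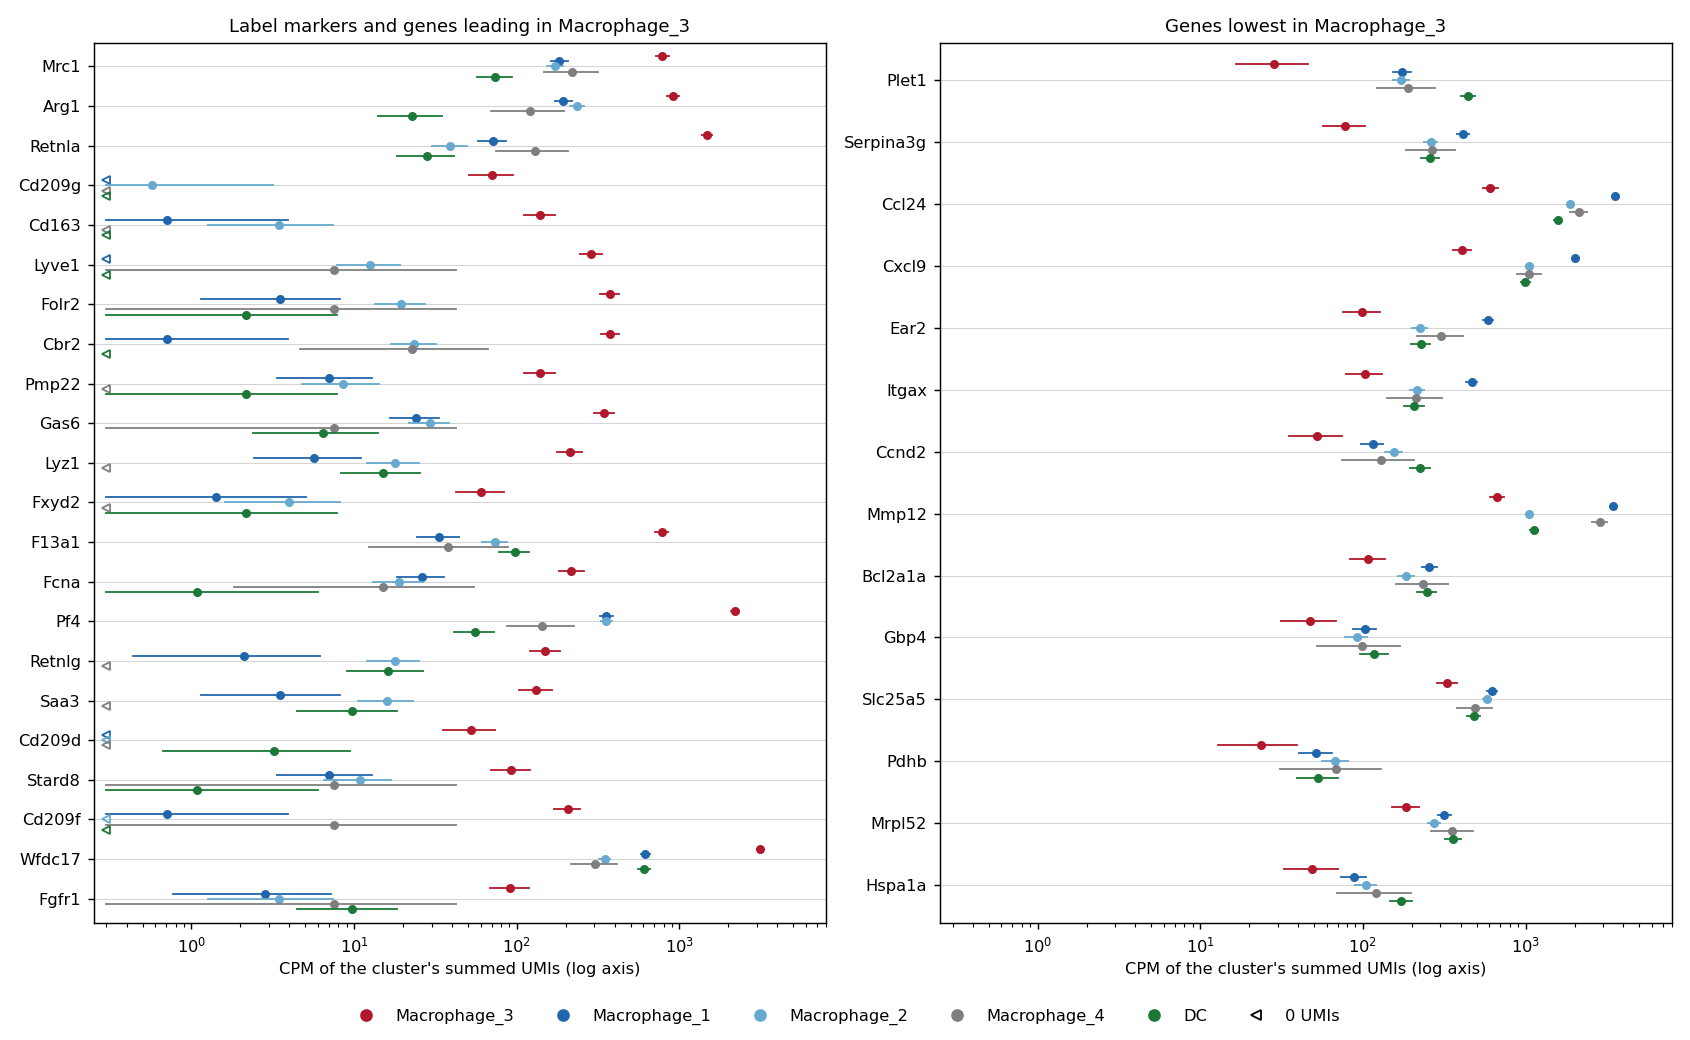
Summed level (CPM, log axis) of the 3 label markers and the genes leading in Macrophage_3 (left) and of the genes lowest in it (right), with 95% counting intervals. Each colour is 1 of 5 clusters of the antibody library and open triangles mark 0 UMIs. Macrophage_3 lies to the right of every neighbour on the left side, as for Pf4 at 2198 CPM against 355 or less, and to the left of them on the right side.

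Of 2735 genes with a mean of at least 50 CPM over the 5 clusters, 55 (2.01%) were at least 2-fold higher in Macrophage_3 than in each of the other 4 clusters, and 12 (0.439%) were at least 2-fold lower than in each. Uptake receptors of resident macrophages led the higher genes. Folr2 stood at 373 CPM against at most 19.4 elsewhere, a ratio of 19.2 (13.3 to 28.4), and was found in 49 of 91 cells. Lyve1 stood at 286 CPM in 25 cells, 22.7-fold (14.5 to 37.2) above Macrophage_2, and had 0 UMIs in Macrophage_1 and DC. Cd163 stood at 139 CPM in 18 cells, 40.7-fold (17.9 to 114) above the highest neighbour. The lectins Cd209f at 205 CPM and Cd209g at 70.5 CPM were each found in 8 cells, of which the richest 4 held 86.1% and 85.7% of the UMIs. Their ratios to the highest neighbour, 27.1 (4.78 to 1080) and 123 (21.0 to 4990), rest on 1 UMI there.

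Other leading genes differed in how widely they were spread over the cluster. The platelet factor 4 gene Pf4, a chemokine gene also expressed by resident macrophages, stood at 2198 CPM in 72 cells, 6.19-fold (5.58 to 6.88) above Macrophage_1. F13a1, the A subunit of coagulation factor XIII, stood at 778 CPM in 65 cells, 8.01-fold (6.38 to 10.2) above DC. Gas6, a bridge between dying cells and TAM receptors, stood at 343 CPM in 49 cells, 11.8-fold (8.61 to 16.3) above Macrophage_2. The carbonyl reductase gene Cbr2 stood at 375 CPM in 40 cells (16.0-fold, 11.4 to 22.9). Fcna, which encodes the ficolin A of the lectin complement pathway, stood at 217 CPM in 25 cells (8.33-fold, 5.74 to 12.4). The richest 4 cells held 58.9% of the Fcna UMIs. Pf4, F13a1, Folr2 and Gas6 were thus found in a majority of the cluster's cells, and Cbr2, Lyve1, Cd163 and Fcna in a minority.

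The remaining leading genes were Pmp22 at 139 CPM (16.3-fold, 9.32 to 30.4), Lyz1 at 212 (12.0-fold, 8.01 to 18.3), Fxyd2 at 60.5 (15.1-fold, 6.63 to 40.3), Saa3 at 131 (8.19-fold, 5.26 to 13.1), Stard8 at 92.4 (8.51-fold, 4.97 to 15.2), Fgfr1 at 90.7 (9.34-fold, 4.58 to 21.5) and Cd209d at 52.1 (16.1-fold, 5.02 to 82.3). Lyz1, a lysozyme gene, had 78.6% of its UMIs in 4 cells, and its ratio was 4.82 without the 4 Retnla-rich cells. Wfdc17, a secreted antiprotease-like protein, stood at 3132 CPM in 79 cells, 5.07-fold (4.68 to 5.50) above Macrophage_1, and at 5381 in the cluster named MDSC_2 (myeloid-derived suppressor cells). Retnlg, a relative of Retnla and a known neutrophil gene, stood at 150 CPM in 11 cells but at 6387 in MDSC_2. Pmp22 and Fgfr1 were highest in Fibroblast&Endothelial_1, and the leading genes apart from these, Wfdc17 and Retnlg were highest in Macrophage_3 among the 30 clusters. Near-identical copies can share tags for Lyz1, the Cd209 genes, Serpina3g, Bcl2a1a and Hspa1a, whose levels are uncertain in that sense.

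The genes lowest in Macrophage_3 included signals and enzymes of the other macrophages. Ccl24, an eotaxin that attracts eosinophils, stood at 608 CPM against 1579 to 3561 in the other 4 clusters, 0.385 (0.342 to 0.432) of the lowest. Cxcl9, an interferon-γ-induced T cell attractant, stood at 406 CPM against 995 to 2024 (0.408, 0.353 to 0.471). Mmp12, the macrophage elastase, stood at 667 CPM against 1056 to 3457 (0.631, 0.565 to 0.704), but as a mean over cells its ratio to the lowest was 0.981. Itgax, which encodes CD11c, stood at 102 CPM against 207 to 465 (0.495, 0.365 to 0.663). Ccl24 is itself counted among the genes of alternative activation, so not all of that programme was highest here.

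Further low genes were Plet1, an epithelial and dendritic cell surface protein, at 28.6 CPM (0.166 of the lowest neighbour, 0.0954 to 0.270), the serpin Serpina3g at 77.3 (0.299, 0.213 to 0.411) and the ribonuclease Ear2 at 99.1 (0.444, 0.331 to 0.584). All 17 Plet1 UMIs of Macrophage_3 lay in 4 cells. The cell cycle gene Ccnd2 (0.454), the mitochondrial genes Pdhb (0.458), Slc25a5 (0.684) and Mrpl52 (0.675), the interferon-induced Gbp4 (0.514), the survival gene Bcl2a1a (0.581) and the chaperone Hspa1a (0.554) were further members of this group. With at least 2000 UMIs per cell, which left 12 Macrophage_4 cells, the ratios of Gbp4 and Bcl2a1a to the lowest neighbour turned to 1.65 (0.273 to 67.5) and 1.26 (0.411 to 6.26).

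Lists of genes by role were compared as the number of measured members at least 2-fold higher or lower, among those with a mean of at least 50 CPM in the pair. Over all genes, 6.89% of 2756 were higher and 5.01% lower than in Macrophage_1, 7.86% and 6.28% of 2914 against Macrophage_2, 16% and 4.62% of 2642 against Macrophage_4, and 8.62% and 3.76% of 2739 against DC. The median log2 ratio over all genes was 0.00, -0.06, 0.09 and 0.00 in the same order. Against Macrophage_2 these were 229 genes higher and 183 lower. With totals that leave out ribosomal and mitochondrial genes the split was 228 higher and 302 lower, and the median moved from -0.06 to -0.16.

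The resident and perivascular list stood furthest from these backgrounds. Of its 21 genes in the files, 18 passed the level minimum, of which 17 were at least 2-fold higher than in Macrophage_1, Macrophage_2 and Macrophage_4 and 18 than in DC, with none lower. Its median log2 ratios were 3.77, 3.46, 3.61 and 5.48. Some members passed the minimum through Macrophage_3 alone and could then count only as higher. Lyve1 and Cbr2, for example, stood at 0 and 0.703 CPM in Macrophage_1. The list was also chosen with earlier results of these data known, so its counts are a description. Ccl8, a chemokine for monocytes and T cells, stood at 3238 CPM against 738 in Macrophage_1 and 78.7 in DC, 4.39-fold (4.07 to 4.73) above the highest neighbour. The scavenger receptor Stab1 stood at 225 CPM (6.06-fold, 4.47 to 8.28), the endothelin receptor Ednrb at 314 (10.4-fold, 3.99 to 38.5), and Maf, a transcription factor of resident macrophages, at 621 (2.82-fold, 2.42 to 3.28). The exception was the growth factor Igf1 at 191 CPM against 274 in Macrophage_1. Without cells that held at least 2 T cell marker or at least 10 neutrophil marker UMIs (33 Macrophage_3, 19 Macrophage_1, 91 Macrophage_2, 3 Macrophage_4 and 36 DC cells), 18 members were at least 2-fold higher than in Macrophage_1, Macrophage_2 and Macrophage_4 and 19 than in DC.

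Alternative activation was higher in part of its members. Of its 18 genes in the files, 12 could be measured against Macrophage_1, of which 7 were higher and 3 lower (median log2 ratio 1.82). The counts were 8 and 1 of 12 against Macrophage_2 (1.89), 5 and 2 of 13 against Macrophage_4 (0.88), and 8 and 5 of 15 against DC (1.08). The list holds the 3 label markers, which supply 3 of the higher members in each comparison and are no independent support for the label. Beside the label markers, the lectin Clec10a stood at 148 CPM (3.61-fold above the highest, 2.44 to 5.43). Other known members went the other way: the chitinase-like Chil3 stood at 35.3 CPM against 315 in DC, the lectin Mgl2 at 118 against 286 in Macrophage_1 (0.411, 0.314 to 0.531), and the transglutaminase Tgm2 at 143 against 446 in Macrophage_1. Without the 4 Retnla-rich cells the median against DC was 0.11, and without cells with T cell or neutrophil markers the median against Macrophage_2 was 2.54. Of the interleukin 4 pathway, the receptor chain Il4ra stood at 228 CPM against at most 121 (1.89-fold, 1.12 to 3.40), and 2, 3, 5 and 3 of 9 or 10 measured members were higher than in Macrophage_1, Macrophage_2, Macrophage_4 and DC and 1, 0, 0 and 1 lower, with a median of -0.21 against DC.

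Antigen presentation on MHC class II was lower than in Macrophage_1 in the 8 of its 12 members that passed the level minimum, with a median log2 ratio of -1.17. H2-Aa, the class II α chain, stood at 2435 CPM against 5585 in Macrophage_1, 3559 in Macrophage_2, 2660 in Macrophage_4 and 4461 in DC. Its ratio to Macrophage_1 was 0.436 (0.412 to 0.461). The invariant chain gene Cd74 stood at 5532 CPM against 11144 in Macrophage_1 (0.496), and Ciita, the master regulator of the class, at 63.8 against 179 (0.356). Against Macrophage_2 and Macrophage_4, 1 and 0 of 8 members passed 2-fold, with medians of -0.56 and -0.37. Against DC, 4 of 9 were lower (median -0.95). Without the cells that held T cell or neutrophil markers, 7 members were lower than in Macrophage_1.

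Chemokines that attract monocytes and eosinophils were mostly higher. Of the 9 of 10 members that passed the level minimum, 6, 7, 7 and 7 were at least 2-fold higher than in Macrophage_1, Macrophage_2, Macrophage_4 and DC. The CCR2 ligands Ccl7 at 413 CPM (5.36-fold above the highest, 4.32 to 6.66) and Ccl2 at 546 (3.03-fold, 2.57 to 3.59), and the CCR1 ligands Ccl6 at 2890 (3.47-fold, 3.22 to 3.74) and Ccl9 at 831 (2.98-fold) were above every neighbour. Ccl24 and, against Macrophage_1, Cxcl16 (262 against 685 CPM) were the lower members. Among inflammatory genes, 6 of 10 were higher than in Macrophage_1 and 2 of 12 than in DC. The neutrophil chemokine Cxcl2 stood at 1567 CPM, 1.58-fold (1.44 to 1.73) above DC.

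Complement genes were mostly higher than in Macrophage_4 and DC. Of 9 measured complement members, 8 were higher than in Macrophage_4 and DC and 4 than in Macrophage_2. Against Macrophage_1, 3 were higher, with a median of 0.03. C4b, a component of the classical pathway, stood at 270 CPM against at most 45.7 (5.92-fold, 4.50 to 7.83), and the anaphylatoxin receptors C3ar1 at 312 (3.22-fold, 2.57 to 4.04) and C5ar1 at 143 (4.10-fold, 2.91 to 5.79). C1qa stood at 3637 CPM, below the 4231 of Macrophage_1 (0.860, 0.818 to 0.903). Of the scavenger and efferocytosis list, 2 of 17 were higher and 4 lower than in Macrophage_1, while 6 of 15, 8 of 15 and 6 of 14 were higher than in Macrophage_2, Macrophage_4 and DC. Selenop, the plasma selenium carrier that is a member of the resident list, stood at 1238 CPM against at most 478 (2.59-fold, 2.33 to 2.88).

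Iron and lipid genes included some of the most abundant transcripts of the cluster. Of 11 measured iron and haem genes, 3, 6, 4 and 8 were higher than in Macrophage_1, Macrophage_2, Macrophage_4 and DC and none lower. Hmox1, the haem-degrading oxygenase, stood at 1678 CPM against at most 718 (2.34-fold, 1.89 to 2.92), and the ferritin light chain gene Ftl1 was 1.68-fold (1.64 to 1.73) above Macrophage_1. Slc40a1, the iron exporter ferroportin, stood at 176 CPM against 346 in Macrophage_1. Of 15 measured osteoclast-like and lipid-associated genes, 2 were higher and 4 lower than in Macrophage_1, with a median log2 ratio of -0.54. The counts were 6 and 1 of 15 against Macrophage_2, 6 and 0 of 15 against Macrophage_4, and 10 and 1 of 16 against DC. Apoe stood at 8581 CPM against 4685, 2949, 2101 and 1048, 1.83-fold (1.77 to 1.90) above Macrophage_1, and Trem2 at 277 against at most 84.4 (3.29-fold, 2.58 to 4.19). Acp5, an acid phosphatase of osteoclasts, stood at 175 CPM against 762 in Macrophage_1 (0.229). Lysosomal genes were higher in 4 of 19, 9 of 20 and 8 of 19 members against Macrophage_2, Macrophage_4 and DC and in 0 of 20 against Macrophage_1.

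Macrophage_1 was higher in several uptake and matrix genes. Mfge8, which tags dying cells for uptake, stood at 25.2 CPM in Macrophage_3 against 262 in Macrophage_1 (0.0963), the arginine transporter Slc7a2 at 16.8 against 183 (0.0919), and the collagenase Mmp13 at 148 against 851. The TAM receptors Axl and Mertk stood at 0.259 and 0.358 of Macrophage_1, while their ligand Gas6 was highest in Macrophage_3. Arginine-handling genes did not follow Arg1: 1 of 6 measured members was higher and 2 lower than in Macrophage_1, and Ass1, which rebuilds arginine, stood at 15.1 CPM against 45.3 to 100.3.

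Cell division genes set Macrophage_3 apart most from Macrophage_2. Of 14 measured members of 18, 12 were lower and none higher, with a median log2 ratio of -2.00. Mki67 stood at 78.9 against 392 CPM (0.201, 0.147 to 0.271), Top2a at 90.7 against 539 (0.168) and Hmgb2 at 274 against 1371 (0.200). T cell markers were lower in the same comparison, in 5 of 7 measured genes (median -1.49), and 91 of the 158 Macrophage_2 cells held T cell or neutrophil markers. Without such cells, 13 cell cycle members were lower. Against Macrophage_4, 3 of 9 cell cycle members were lower and none higher (median -0.76). Against Macrophage_1 and against DC, 2 of 7 were higher and none lower. Hypoxia and glycolysis genes differed little in the summed levels: 0, 0, 1 and 1 of 16 or 17 measured members were higher. Of the interferon list, 2 of 14, 0 of 13, 1 of 13 and 0 of 13 were higher and 2, 2, 1 and 3 lower. Of 7 or 8 measured checkpoint ligands and Siglec genes, 0, 0, 2 and 1 were higher, and Cd274, which encodes PD-L1, stood at 94.0 CPM against 75.6 to 136.

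Growth factor and matrix genes were mixed, with 5 of 13 higher and 4 lower than in Macrophage_1, 4 of 10 and 0 against Macrophage_2, 3 of 12 and 3 against Macrophage_4, and 7 of 13 and 0 against DC. Timp2, an inhibitor of matrix proteases, stood at 741 CPM (2.75-fold above the highest, 2.39 to 3.16), and Fn1 at 605 against at most 325, with 59.4% of its UMIs in 4 cells. In the 87 cells other than the 4 Retnla-rich ones, Fn1 stood at 307 CPM, which is below that 325. Genes known to respond to tissue digestion were higher in 2 of 15, 2 of 15, 7 of 15 and 0 of 15 members against Macrophage_1, Macrophage_2, Macrophage_4 and DC.

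**Figure D2:**
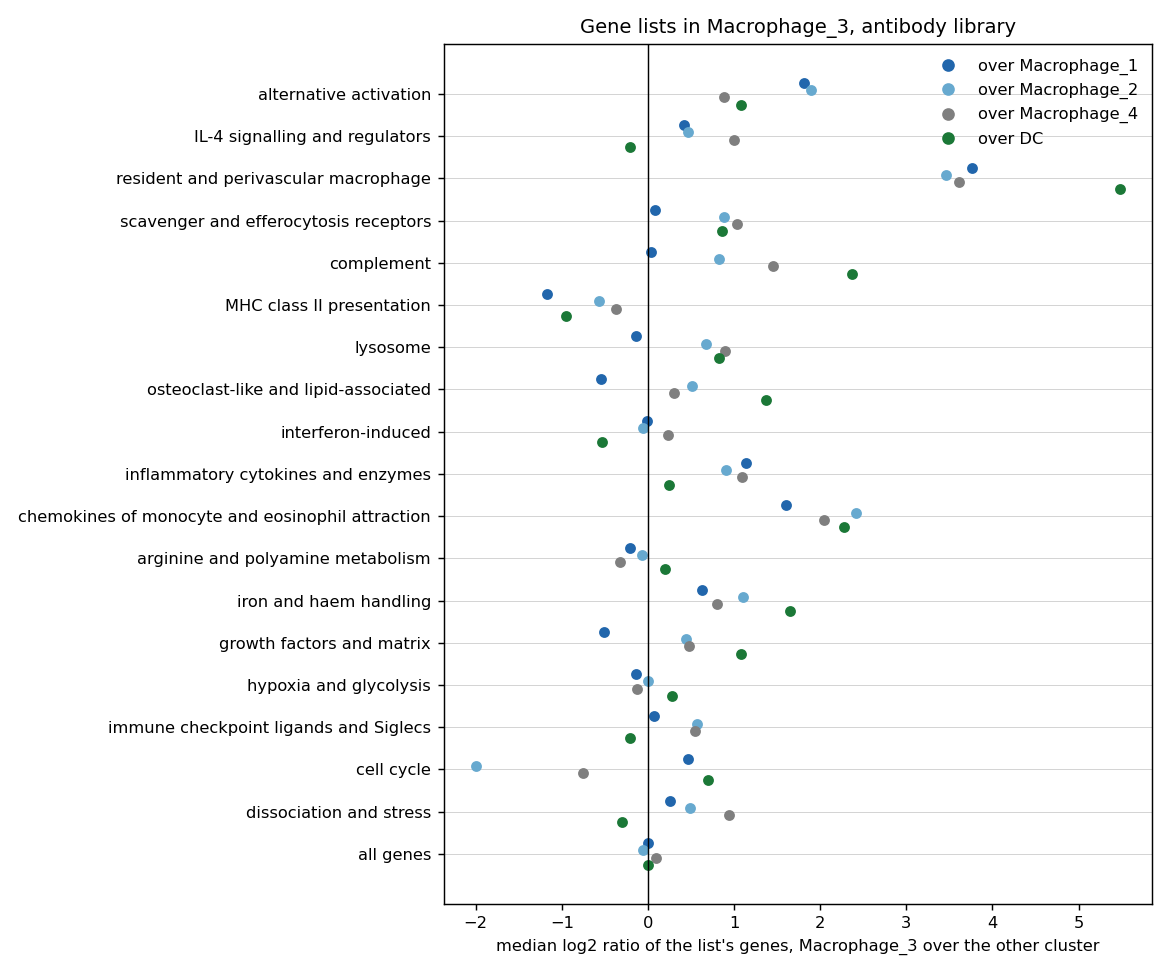
Median log2 ratio of Macrophage_3 to each of 4 clusters (colours) over the measured genes of each list, antibody library, with all measured genes in the lowest row. The resident and perivascular list, at 3.46 to 5.48, lies furthest above 0, and the cell cycle list against Macrophage_2, at -2.00, furthest below. The lists were chosen with earlier results of these data known, and some resident members passed the level minimum through Macrophage_3 alone.

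Markers of other cell types were counted in the same cells. Macrophage markers summed to 19425 CPM in Macrophage_3, against 3810 to 16923 in the other 4 clusters, with Apoe as the largest part. Gene by gene they were not higher than in Macrophage_1. Of the 10 markers, 1 was at least 2-fold higher and 1 lower there, with a median log2 ratio of -0.03. Neutrophil markers (8 genes, none at 0) summed to 4304 CPM, near the 4204 of DC and above the 506 to 1111 of the other macrophage clusters, and S100a8 was found in 30 cells. T cell markers (8 genes, none at 0) summed to 413 CPM against 91.4 to 999, and Cd3g was found in 19 cells. Monocyte markers summed to 796 CPM against 319 to 3327, dendritic cell markers (4 of 10 at 0, with Flt3 and Xcr1 among them) to 80.6 against 185 to 334, and hepatoma markers to 873 against 665 to 2509. B cell markers summed to 126 CPM against 23.9 to 74.4, nearly all from Ighm in 31 cells, while Cd79a and Ms4a1 were at 0. All 3 eosinophil markers were at 0. Kupffer cell markers summed to 232 CPM against 0 to 22.7, mostly from Marco at 146 CPM in 10 cells. Cd5l was found in 11 cells, and Vsig4 and Timd4 in 3 cells each.

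Leaving out the 33 Macrophage_3 cells with T cell or neutrophil markers, and the like cells of the neighbours, left the label markers above every neighbour. The ratio to the highest neighbour was then 6.82 for Retnla and 6.38 for Arg1, and for Mrc1 it lay between 3.10 and 4.34 over all alternatives tried. By their S100a8 and S100a9 UMIs, the cells with 349 and 70 Retnla UMIs were among the 33. The Retnla-rich cells with 228 and 131 UMIs held no S100a8 or S100a9. The 6.82 therefore does not show that Retnla was spread over the cluster. The resident, class II and cell cycle counts without the cells with T cell or neutrophil markers stand beside those lists. A doublet caller marked 3 of 5482 cells (0.0547%) and none in these 5 clusters, and did not work at that share. The cells in the top 5% of its scores included 1 Macrophage_3 cell.

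Macrophage_3 cells also differed among themselves. Cells with UMIs of at least 2 of Folr2, Lyve1, Cd163 and Cbr2 numbered 41, with a median depth of 7643 UMIs. Of the others, 21 held at least 2 Arg1 UMIs (median depth 4644) and 29 met neither rule (4215). These ranges were chosen after values were seen and have soft edges: 18 cells had exactly 2 of the 4 genes, 17 exactly 1, 5 cells had 1 Arg1 UMI, and 4 met both rules. They are descriptions, and differences in the genes that define them are no result. Over all genes, 5.69% of 2796 were at least 2-fold higher and 5.4% lower in the resident-gene cells than in the other Macrophage_3 cells, and 17 of 19 measured members of the resident list, which holds the defining genes, were higher.

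The 41 resident-gene cells held most of the Ccl8 and Gas6. Ccl8 stood at 5042 CPM in them against 818 in the Arg1 cells and 1112 in the remaining 29, with medians over cells of 3467, 0 and 381. Gas6 stood at 554, 79.1 and 79.4 CPM, Selenop at 1848, 343 and 576, Mrc1 at 1095, 334 and 437, and C1qa at 4295, 1758 and 3613. Apoe stood at 10105, 3376 and 9166 CPM. The immunoglobulin gene Ighm, a B cell marker, moved with this range: it was found in 56.1% of the resident-gene cells (169 CPM), 4.76% of the Arg1 cells (8.79) and 24.1% of the rest (106), and its part in these levels was not tested. The Mrc1 level over single cells went with F13a1 (Pearson's r 0.543), Cbr2 (0.515) and Folr2 (0.508) and not with Arg1 (-0.197) across the 91 cells, which share 1 library and differ in depth.

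The 21 Arg1 cells carried more transcripts of the hypoxia list. Of 18 measured hypoxia and glycolysis genes, 9 were at least 2-fold higher than in the other Macrophage_3 cells and none lower, where 8.63% of 2804 genes were higher and 7.56% lower. Hilpda, a lipid droplet gene induced by low oxygen, stood at 369 CPM against 60.5 in the resident-gene cells and 79.4 in the rest, the oxidoreductase Ero1l at 378 (229 without the richest cell), 24.2 and 66.2, and the glucose transporter Slc2a1 at 229, 33.3 and 79.4. Thbs1, which encodes thrombospondin 1, stood at 695, 18.2 and 59.6 CPM, and Hmox1 at 4264, 1216 and 741. Spp1, which encodes osteopontin, stood at 1582, 118 and 39.7 CPM, was found in 10 of the 21 cells and had a median over cells of 0. Of its 180 UMIs in the Arg1 cells, 118 lay in 1 cell, which also held neutrophil marker UMIs, and the level without that cell was 586 CPM. Ccl24 stood at 1996, 363 and 99.3 CPM. Of the lower values, 1 cell set much of Hilpda in the resident-gene cells (37.7 CPM without it), of Gas6 in the Arg1 cells (45.9) and of Hmox1 (411) and Ccl24 (52.0) in the remaining cells. Of the other lists, 7 of 11 inflammatory genes and 5 of 13 genes known to respond to tissue digestion were also higher in the Arg1 cells, with none lower. More hypoxia genes passed 2-fold within Macrophage_3 than between its sum and any of the 4 neighbours. These counts are not like for like, because the 21 cells were picked by Arg1, a gene known to respond to low oxygen.

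The remaining 29 cells had more MHC class II. H2-Aa stood at 4355 CPM in them against 1899 in the resident-gene cells and 1442 in the Arg1 cells, and Cd74 at 9517, 4389 and 3561, with medians over cells of 9794, 2497 and 4272. Of 8 measured class II genes, 4 were at least 2-fold higher than in the other Macrophage_3 cells, where 3.9% of 2820 genes were higher and 4.75% lower. Cxcl9 stood at 993 CPM in the 29 cells, 182 in the resident-gene cells and 281 in the Arg1 cells, with a median over cells of 0 in each range. Of its 150 UMIs in the 29 cells, 71 lay in 1 cell, and without the richest cell of each range the levels were 555, 119 and 116 CPM. These cells held 3 of the 4 Retnla-rich cells, and the other lay among the resident-gene cells. S100a8 stood at 2058 CPM in them, 1231 in the resident-gene cells and 1653 in the Arg1 cells, so neutrophil marker transcripts were present in all 3 ranges. Without the richest cell of the range, S100a8 stood at 1021 CPM in the 29 cells and at 1021 in the Arg1 cells.

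**Figure D3:**
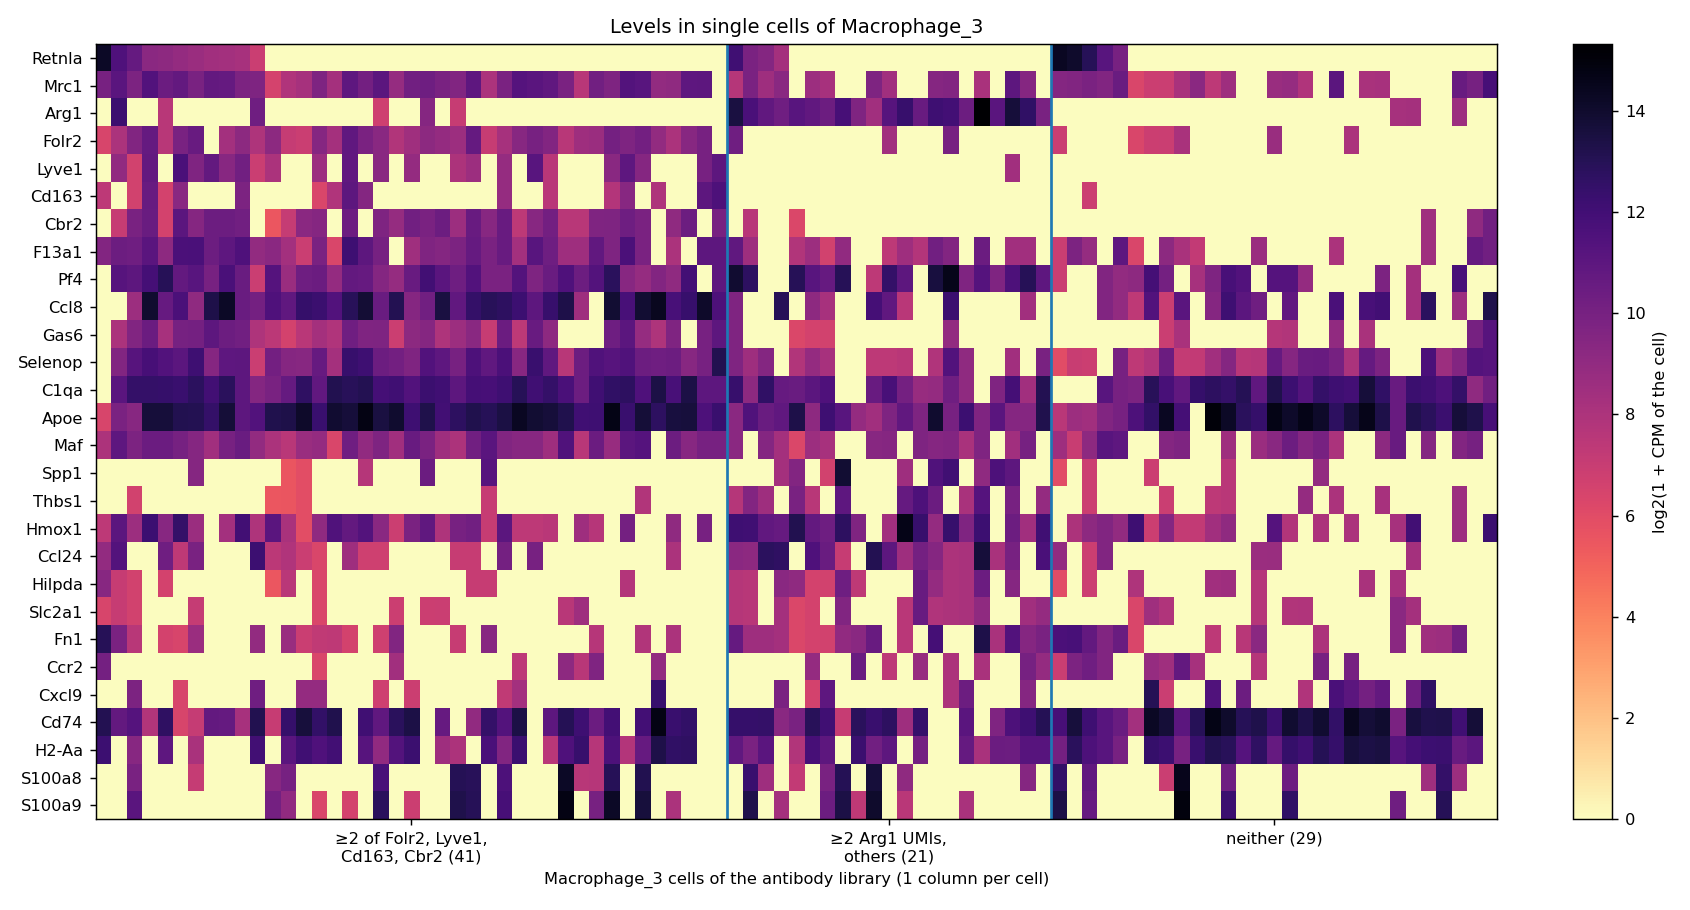
Level of 28 genes (rows, log2 of 1 plus CPM) in each of the 91 Macrophage_3 cells of the antibody library (columns), grouped as 41 resident-gene cells, 21 Arg1 cells and 29 others, and sorted by Retnla within each. Ccl8, Gas6 and Selenop fill the first group, Arg1 and Thbs1 the second, and Retnla is dense in few columns.

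Between the libraries, Macrophage_3 took a smaller share of macrophages in the mice given antibody. It was 104 of 376 macrophages (27.7%, 23.2% to 32.5%) in the IgG library and 91 of 532 (17.1%, 14.0% to 20.6%) in the antibody library, a ratio of 0.618 (0.462 to 0.827). Macrophage_1 went from 25.8% to 33.5% of macrophages (1.30, 1.01 to 1.68), Macrophage_2 from 23.7% to 29.7% (1.26, 0.962 to 1.65) and Macrophage_4 from 22.9% to 19.7% (0.863, 0.643 to 1.16). Of immune cells, Macrophage_3 was 9.12% of 1141 with IgG and 4.50% of 2022 with antibody, a ratio of 0.494 (0.369 to 0.661), where immune cells are those of clusters with an immune cell name. The same ratio was 1.04 for Macrophage_1, 1.00 for Macrophage_2 and 0.827 (0.665 to 1.03) for DC. Of all cells it was 1.80% and 1.66%, a ratio of 0.920 (0.687 to 1.23). The count of Macrophage_3 cells was therefore similar in the libraries, and the number of other immune cells per library was larger with the antibody. With 1 library per group, a difference between mice or between mixings of sorted and unsorted cells cannot be told apart from the treatment. The 4 shares of macrophages sum to 1, so they are not independent.

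**Figure D4:**
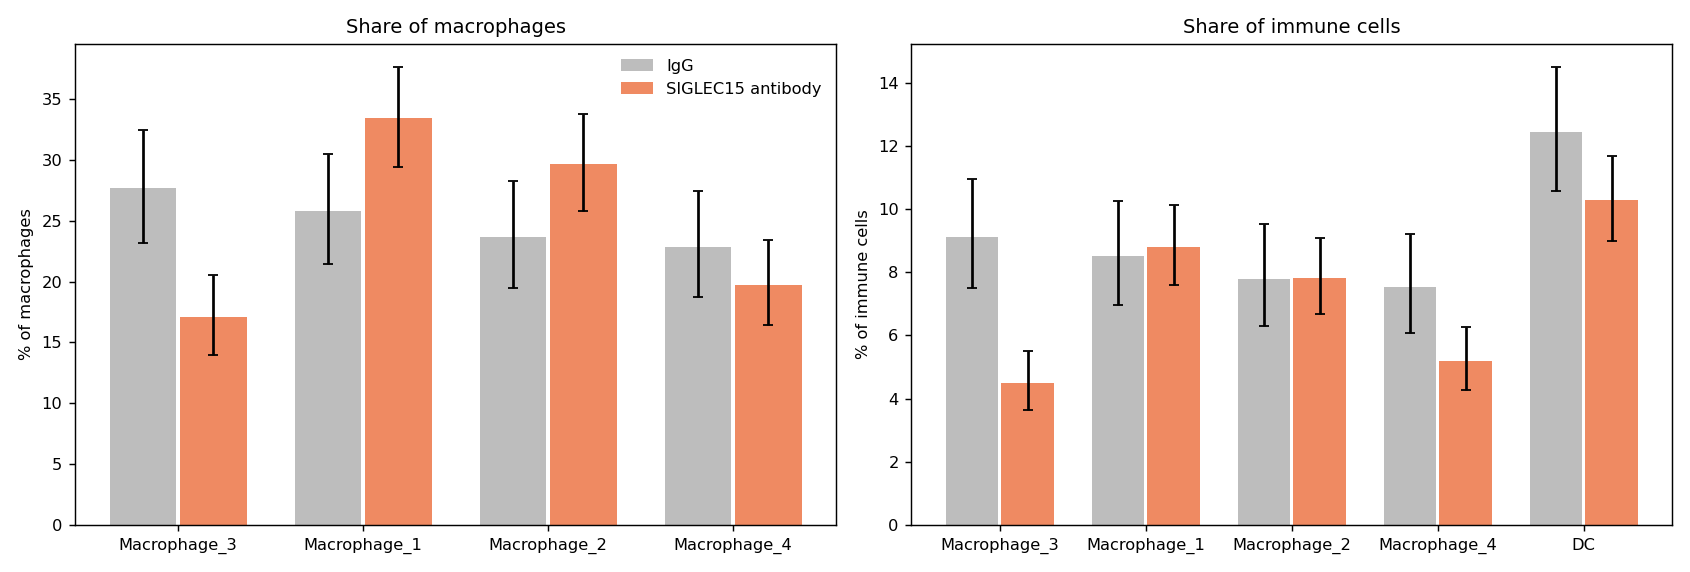
Macrophage_3 and its neighbours as a share of macrophages (left) and of immune cells (right) in the IgG (grey) and the antibody (orange) library. Bars are percentages of cells and lines exact 95% intervals for counting error. The Macrophage_3 share is lower with the antibody among macrophages (27.7% and 17.1%) and immune cells (9.12% and 4.50%).

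Expression within Macrophage_3 could be compared between the libraries for 105 genes, of which 42 had at least 20 UMIs in its cells over both libraries and 33 had none. A depth was known for 103 of the 104 IgG cells, with 700681 UMIs in all and a median of 5891 per cell. Of the 42 genes, 3 (7.14%) were at least 1.5-fold higher and 4 (9.52%) at least 1.5-fold lower with the antibody, with a median log2 ratio of 0.08. No interval excluded a ratio of 1. Beside Pcmtd1 (0.686, 0.381 to 1.21) and Ly96 (0.712, 0.405 to 1.23), genes with lower levels were the succinate dehydrogenase assembly factor Sdhaf4 (0.495, 0.188 to 1.19), the mitochondrial ribosomal gene Mrpl15 (35.3 against 59.9 CPM, 0.588, 0.331 to 1.02), the autophagy gene Rb1cc1 (0.616, 0.350 to 1.06), Fam168b (0.634, 0.385 to 1.02) and Eloc (0.751, 0.544 to 1.03). Genes with higher levels included Hs6st1 (1.70, 0.672 to 4.51), Cspp1 (1.67, 0.750 to 3.83), Dst (1.63, 0.857 to 3.18), Neurl3 (1.42, 0.908 to 2.23) and the ribosomal gene Rpl7 (1340 against 1222 CPM, 1.10, 0.995 to 1.21). At this depth no difference was detectable in these genes, and the intervals still allow changes of the size of the ratios.

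The shared genes also show how Macrophage_3 stood to its neighbours in each library. Ptpn18, a tyrosine phosphatase, stood at 534 CPM with antibody and 551 with IgG (0.969, 0.833 to 1.13), and was 1.94-fold and 1.89-fold the Macrophage_1 level. The respiratory chain gene Cox5b stood at 497 and 448 CPM. Ly96, which encodes the MD-2 partner of the lipopolysaccharide receptor, was 1.49-fold and 2.48-fold, and Sgk3 1.89-fold and 2.22-fold the Macrophage_1 level. The cytoskeletal linker Dst stood at 0.409 and 0.200 of it. Zap70, a kinase of T cells, was 7.17-fold and 11.1-fold the Macrophage_1 level, beside the T cell markers given above. Against Macrophage_1, 14 of 40 genes lay above 1 in both libraries and 13 below 1 in both. The counts were 11 and 20 of 42 against Macrophage_2, 11 and 6 of 26 against Macrophage_4, and 14 and 13 of 40 against DC. The authors' clusters were named for both libraries, so these counts are no independent support. Retnla, Mrc1 and Arg1 were not analysed in the IgG library here.

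**Figure D5:**
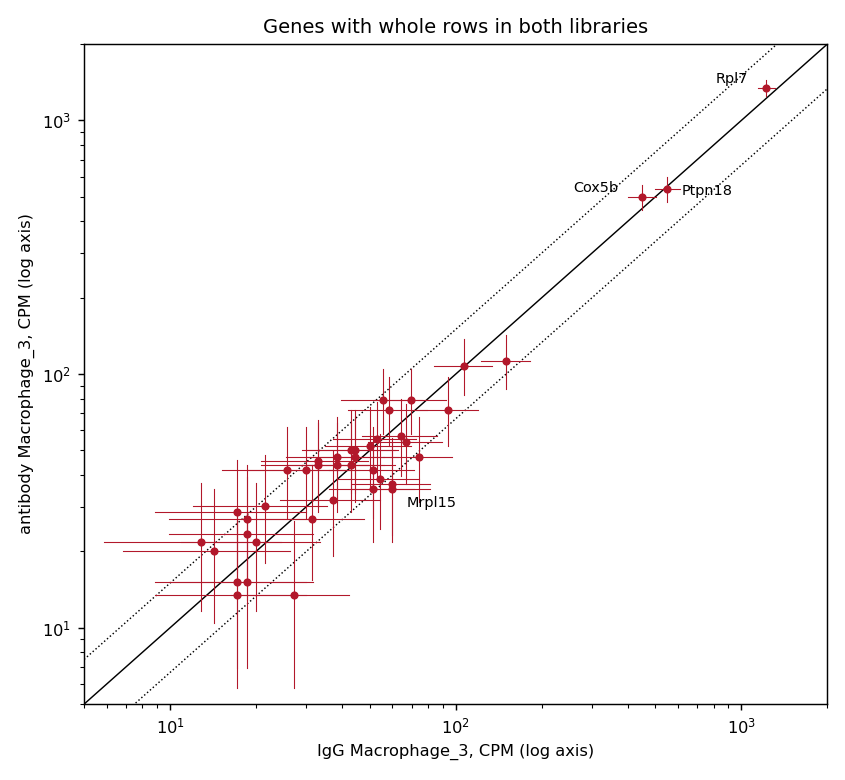
Level in Macrophage_3 with antibody against IgG for the 42 shared genes (CPM, log axes), with 95% counting intervals. The solid line marks equal levels and the dotted lines 1.5-fold. Points lie near the line of equality, as for Ptpn18 at 534 and 551 CPM, and no ratio between the libraries has an interval that excludes 1.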

How the data were processed

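The authors deposited, for each library, a list of cells with cluster names and a matrix of natural log values, ln(1 + 10000 times a cell's UMI count of a gene over its total), which was checked on the values. The submitters' processing notes name Cell Ranger 2.1.1 for the counting. The genome build, filters and clustering are not stated (not given in the sources used here). All 18685 genes of the 5482 antibody cells were used, and of the 5765 IgG cells the 105 genes with complete rows.

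UMI counts were recovered (Python 3.11.15, numpy 2.4.6, pandas 2.3.3, scipy 1.17.1). In the antibody library all were whole within 0.001 and summed to the depth in 5482 cells. For IgG cells the depth came from the shared genes. The same step gave the right depth in 5440 antibody cells, a wrong one in 8 and none in 34.

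Summed UMIs gave CPM, and ratios had exact conditional 95% intervals. Shares had Clopper-Pearson intervals. PCR and cell-to-cell spread are not in these intervals. List medians used a prior of 0.5 UMI. Thinned shares are expected values at 1000 UMIs. Doublets were scored with scrublet in scanpy 1.11.5, and plots drawn with matplotlib 3.10.9. The steps were tested on simulated data with counting error alone, a test that does not cover spread among cells. Gene symbols were taken from the files, and 18392 of 18685 matched the reference names.

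Named genes were the label markers, up to 20 with the largest lower bound of the ratio to the highest neighbour, and up to 15 with the smallest upper bound of the ratio to the lowest, at 50 CPM or more. Ribosomal, mitochondrial, haemoglobin, receptor and unnamed genes were left out. Some items that meet these rules are not reported here. List members with the largest and smallest folds and the 5 shared genes with the interval bound farthest from 1 in each direction were added. Some list members and shared genes, and the genes given for ranges of cells and for the Retnla-rich cells, were chosen after their values were seen. The members, the 18 gene lists and the 16 marker lists were chosen with earlier results of these data known.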

Additional observations from a re-analysis of the deposited data

How the results depend on the processing

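No paired analysis was possible because each group is 1 library. With a minimum mean of 20 CPM, 434, 449, 1055 and 541 genes were at least 2-fold higher than in Macrophage_1, Macrophage_2, Macrophage_4 and DC, and 250, 442, 442 and 242 lower. With 100 CPM the counts were 102, 126, 194 and 115 higher and 74, 61, 39 and 56 lower. Totals without ribosomal and mitochondrial genes gave 302, 199 and 156 lower than in Macrophage_2, Macrophage_4 and DC. Leaving out cells with T cell or neutrophil marker UMIs gave 297 lower than in Macrophage_2 and 157 lower than in DC. A minimum of 2000 UMIs per cell left 12 Macrophage_4 cells and gave 371 lower than in Macrophage_4. Under that minimum 2 ratios to the lowest neighbour turned above 1: Bcl2a1a at 1.26 (0.411 to 6.26) and Gbp4 at 1.65 (0.273 to 67.5). Between libraries, 9 shared genes were higher and 7 lower as a mean over cells, and 6 and 0 were higher with a minimum of 10 and 50 UMIs. Causes were not tested. Shares of macrophages kept ratios of 0.591 to 0.601 and shares of immune cells 0.482 to 0.549.

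The Retnla ratio was 20.9 with at least 2000 UMIs, 21.5 without the top 5% of doublet scores, 4.84 as a mean over cells and 1.42 without 4 cells. The highest neighbour was picked anew in each alternative. Macrophage_4, the highest in the main setting, lost 93 and 16 of its 105 cells in the first 2 alternatives. Their ratios are therefore not like for like with the main ratio of 11.5. Arg1 was 5.80 and Mmp12 0.981 as a mean over cells. Of 255 alternatives over 37 named ratios, 227 stayed within the counting interval, 26 moved outside it and 2 turned direction. No value was obtained for Cd209g, Cd163 and Retnlg without the marker-holding cells, or for Pdhb at 2000 UMIs. Depth limits most the comparison with Macrophage_4, of which 47 of 105 cells held under 1000 UMIs, and the 42 shared genes.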
